A study of Mus musculus with 6 samples.

Results

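The early B cell factor genes Ebf1, Ebf2, Ebf3 and Ebf4, the Runt-related genes Runx1, Runx2 and Runx3, and Cbfb, which encodes the shared partner protein of the Runx factors, were followed in mouse germinal vesicle (GV) oocytes. GV oocytes are fully grown and still arrested in the first meiotic prophase. The 8 genes were found by their Entrez identifiers among the 24421 genes of the deposited count table, and all 8 had a row. They were chosen by gene family with results of this same comparison already known, so their levels and fold changes are given as a description and without a p-value.

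Bulk RNA-seq libraries of 2 mouse genotypes were compared, with 3 libraries in each. The DKO genotype was Ring1 -/-; Rnf2 f/f; Zp3-cre, and the SKO genotype was Ring1 -/-; Rnf2 f/f. Ring1 was therefore absent by genotype from the controls too, and the comparison asks what loss of Rnf2 adds. Ring1 and Rnf2 are the paired catalytic ubiquitin ligases of Polycomb repressive complex 1, a chromatin complex that keeps developmental genes silent. Zp3-cre deletes floxed alleles in growing oocytes, after the primordial stage. Only DKO mice carried the transgene, so what Cre itself does and what the deletion does cannot be told apart. The females were approximately 3 months old, on a mixed background of FVB, 129/Sv and C57BL/6J, and each library pooled 15 GV oocytes of 1 mouse after granulosa cells were removed by pipetting. A pooled library cannot tell RNA in a few oocytes from less RNA in all of them.

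Ebf proteins bind DNA as dimers through an unusual zinc-coordinating domain and are known for setting lineage choices in B cells, fat cells and neurons. Runx proteins bind DNA through the Runt domain, and Cbfb, which does not touch DNA itself, joins them and strengthens that binding. In the ovary, Runx1 and Runx2 are known mainly from granulosa cells, the somatic cells around the oocyte, and both families are well-known targets of Polycomb repression in other cell types.

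The libraries held 15521975 to 26652745 counts. Rnf2, the targeted gene, had 989, 654 and 589 counts in the DKO libraries (replicates 1, 2 and 3) against 5041, 3901 and 4563 in SKO (log2 fold change -2.38, SE 0.30, adjusted p = 0.000349, edgeR quasi-likelihood test). Ring1 had 1 to 13 counts in every library and was not tested. The summed level of 12 oocyte markers was 13000 to 17800 CPM (read counts put on a shared scale across libraries with TMM) in DKO and 23000 to 24600 in SKO. Of these 12, 7 were lower and 0 higher in DKO, beside 7.41% and 17.3% of all tested genes. Bmp15 was among the 7 (log2 fold change -0.68, adjusted p = 0.00684, edgeR). The 2 other most abundant, Gdf9 (-0.50) and Padi6 (-0.54), did not pass.

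The 12 granulosa and cumulus markers summed to 182 to 208 CPM in DKO and 110 to 135 in SKO, without overlap. Of the 10 tested, 4 were higher and 1 lower, beside 17.3% and 7.41% of all tested genes. On the SKO libraries alone 6 passed the filter on low counts, of which 3 were higher. Fshr, the receptor for follicle-stimulating hormone, was at 30.7 ± 2.55 CPM in DKO and 0.506 ± 0.0397 in SKO (SD, n = 3; log2 fold change 5.91). Nr5a2 rose by less (log2 fold change 0.56) and Cyp19a1, the aromatase gene, fell by 0.82 on the log2 scale. Foxl2, a defining granulosa factor, had 26, 39 and 6 counts in DKO and 7, 0 and 6 in SKO. The 13 theca, stroma and endothelium markers summed to 83.2 to 103 CPM in DKO and 101 to 132 in SKO, a sum led by Pecam1 (log2 fold change -0.85), with Kdr higher (1.65) and Vwf not past the threshold (1.09). In that list 5 of the 10 tested markers were higher and 1 lower, beside 17.3% and 7.41% of all tested genes. The 4 others that were higher were the stroma and fibroblast genes Pdgfra (2.69), Dcn (2.71), Col1a1 (4.16) and Lum (50 DKO counts and 0 in SKO, at least 18.3-fold higher against a floor of 3 counts over the group). On the SKO libraries alone 5 markers of that list passed the filter on low counts, of which 2 were higher. Dcn, Col1a1 and Lum did not pass on those libraries alone. Cdh5, of endothelium, and Col1a2, of fibroblasts, had at most 4 counts in any library. The 13 blood and immune markers summed to 5.16 to 9.85 CPM in DKO and 3.12 to 4.87 in SKO. Cd68 (log2 fold change 0.28) and Itgam (-1.54) did not pass. The haemoglobin genes Hba-a1 and Hbb-bs and the macrophage genes C1qa and Tyrobp were at 0 in all 6 libraries, and Ptprc, carried by white blood cells in general, had 2, 4 and 5 counts in DKO and 0 in SKO. The part of these other cells in the levels described next was not tested.

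All 8 genes were higher in DKO than in SKO, by amounts that ranged from a log2 fold change of 1.17 for Cbfb to a ratio of 337 for Runx3. By edgeR's quasi-likelihood test, adjusted over 14845 genes, 8 of 8 were called higher and 0 lower. Of all genes tested, 17.3% were called higher and 7.41% lower. In 8 of 8 genes every DKO library lay above every SKO library, a pattern that 24.7% of all tested genes showed. Because the genes were selected with this contrast in view, nothing is read from these counts. The filter on low counts was passed by 5 of the 8 (Ebf1, Ebf2, Ebf3, Runx2 and Cbfb) on the SKO libraries alone. Ebf4, Runx1 and Runx3 entered the test through their DKO counts only. Among the 12731 genes that pass on the SKO libraries alone, 12.0% were called higher.

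**Figure D1:**
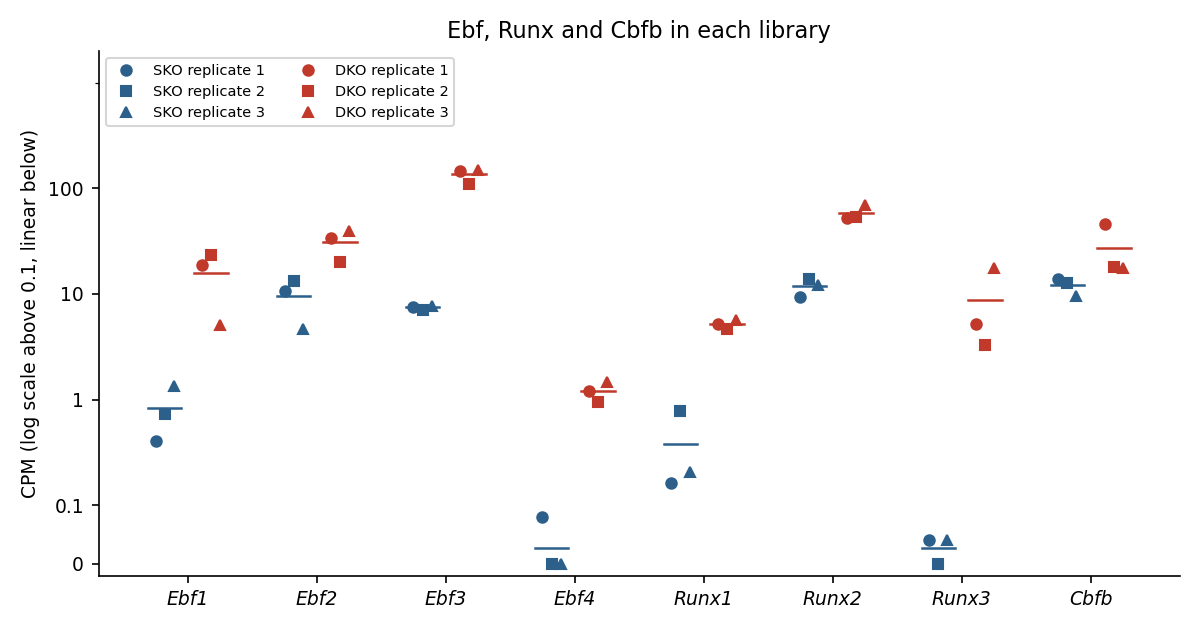
Level of each gene in CPM (y axis, logarithmic above 0.1 and linear below) in the 3 SKO libraries (blue) and 3 DKO libraries (red). Each symbol is 1 library and each horizontal bar the mean of 3. The groups are apart for every gene, by the widest margin for Ebf3 among the well-counted ones, and Ebf4 and Runx3 are at or near 0 in SKO.

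Ebf3, which acts in neuron development and is closely related to Ebf1 and Ebf2, was the most abundant of the 8 in DKO. Replicates 1 to 3 had 147, 110.2 and 149.7 CPM in DKO, against 7.57, 7.09 and 7.73 in SKO. The DKO libraries all stood more than an order of magnitude above the SKO libraries, and the SKO libraries were nearly equal. The mean went from 7.46 ± 0.329 to 135.6 ± 22.1 CPM (SD, n = 3), a log2 fold change of 4.18 (SE 0.21).

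Ebf1, the factor that commits progenitors to the B cell fate, was low in SKO and varied most among the Ebf genes in DKO. Its levels were 18.9, 23.2 and 5.13 CPM in DKO and 0.403, 0.737 and 1.36 in SKO. DKO replicate 3 was the low library, yet still above SKO replicate 3, the highest control. Means were 15.7 ± 9.42 and 0.832 ± 0.484 CPM (SD, n = 3), a log2 fold change of 4.23 (SE 0.63). That is close to the value for Ebf3, with an SE about 3 times as large.

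Ebf2, known for brown fat identity and for migrating neurons, had the highest Ebf level in 2 of the 3 SKO libraries when set per length. It was at 33.9, 20.0 and 39.5 CPM in DKO and 10.7, 13.2 and 4.64 in SKO. The lowest DKO library (replicate 2) and the highest SKO library (replicate 2) lay closest, without overlap. The means were 31.1 ± 10.01 and 9.49 ± 4.38 CPM (SD, n = 3), and the log2 fold change, 1.71 (SE 0.39), was the smallest of the family. SKO replicate 3 had the highest Ebf1 and the lowest Ebf2 of its group. DKO replicate 3 had the lowest Ebf1 and the highest Ebf2, though its Ebf2 was near that of replicate 1 (39.5 and 33.9 CPM). The SKO levels of Ebf1 rest on 10, 16 and 33 counts, and these orders were not tested.

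Ebf4, the most divergent member of the family, stayed close to the detection limit. There were 21, 20 and 38 counts in DKO and 2, 0 and 0 in SKO. The 3 DKO libraries were alike at 0.940 to 1.48 CPM, and the controls were at or near 0. Scaled to library size, 79 DKO counts against 2 SKO counts gave a ratio of 43.3, with an exact 95% interval of 11.6 to 364 that covers counting error only, since amplified reads are not independent molecules. Without SKO replicate 1, which holds both control counts, no control count is left.

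Runx2, the master regulator of bone-forming osteoblasts, was the most abundant Runx gene in both genotypes. Its levels were 52.4, 53.3 and 69.8 CPM in DKO and 9.26, 13.9 and 12.2 in SKO. All 3 DKO libraries stood well above all 3 SKO libraries. The means, 58.5 ± 9.78 and 11.8 ± 2.33 CPM (SD, n = 3), gave a log2 fold change of 2.31 (SE 0.24).

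Runx1, needed for the emergence of blood stem cells, was low in both genotypes. Its levels were 5.24, 4.70 and 5.71 CPM in DKO and 0.161, 0.783 and 0.206 in SKO. The DKO libraries were nearly equal, and SKO replicate 2 was the highest control, with 17 counts against 4 and 5 in the others. The means were 5.22 ± 0.506 and 0.383 ± 0.347 CPM (SD, n = 3), and the log2 fold change was 3.77 (SE 0.62). Without SKO replicate 2 it was 4.78.

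Runx3, which directs cytotoxic T cells and the sensory neurons of muscle stretch, had the largest ratio of the 8. It had 92, 70 and 453 counts in DKO and 1, 0 and 1 in SKO. DKO replicate 3, at 17.6 CPM, stood above the other two, at 5.24 and 3.29 CPM, and the controls were practically empty. The ratio of 615 to 2 counts, scaled to library size, was 337 (exact 95% interval 93.0 to 2790, counting error only). The fitted log2 fold change, which at 2 control counts depends on the prior count, was 8.02, and 6.97 without DKO replicate 3.

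Cbfb, the non-DNA-binding partner, had the smallest fold change of the 8. Its levels were 46.0, 18.04 and 17.6 CPM in DKO and 13.7, 12.8 and 9.62 in SKO. DKO replicate 1 was the high library, and DKO replicates 2 and 3 were just above the highest control. The means were 27.2 ± 16.3 and 12.0 ± 2.15 CPM (SD, n = 3), a log2 fold change of 1.17 (SE 0.38). Without DKO replicate 1 it was 0.56, and Cbfb was then not among the genes called; nor was it without SKO replicate 1, 2 or 3.

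**Figure D2:**
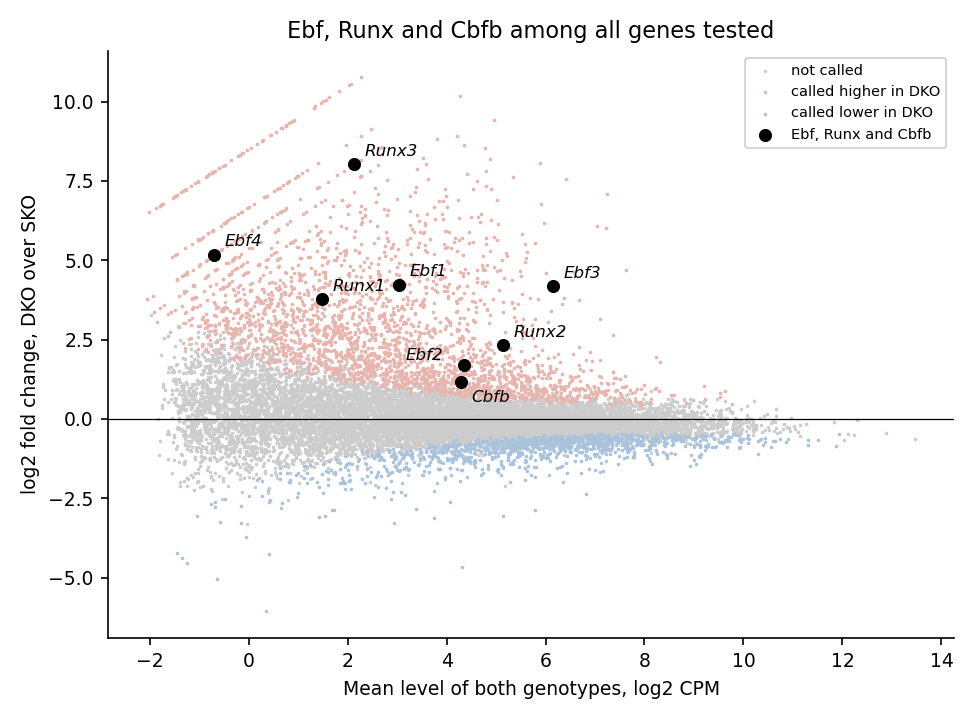
Log2 fold change of DKO over SKO (y axis) against the mean level of both genotypes in log2 CPM (x axis) for 14845 tested genes. Each small point is 1 gene, coloured by call, and the 8 Ebf, Runx and Cbfb genes are black. All 8 lie above 0, with Ebf3 the furthest to the right of those above 4 and Cbfb the lowest at 1.17.

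Levels of different genes can be set side by side only per length, here as CPM per kb of the deposited gene length. In DKO the order of mean levels was Ebf3 (27 CPM per kb), Cbfb (9.33), Runx2 (8.23), Ebf2 (5.45), Runx3 (2.08), Ebf1 (1.81), Runx1 (0.557) and Ebf4 (0.426). Of these neighbours, Ebf3 and Cbfb had ranges over libraries that did not overlap, as did Runx2 and Ebf2, and the other neighbours overlapped. In SKO the order was Cbfb (4.13 CPM per kb), Ebf2 (1.66), Runx2 (1.66), Ebf3 (1.49), Ebf1 (0.0959), Runx1 (0.0409), Ebf4 (0.0095) and Runx3 (0.0065). There Cbfb stood apart from Ebf2, and Ebf3 from Ebf1. The controls thus held 4 genes at 1.49 CPM per kb or more and 4 at under 0.1.

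The make-up of each family differed between the genotypes. The summed Ebf level was 34.7 ± 5.41 CPM per kb in DKO and 3.25 ± 0.67 in SKO (SD, n = 3). Ebf3 made up 77.4%, 77.1% and 78.8% of that sum in DKO and 43.7%, 37.1% and 61.4% in SKO. Ebf2 made up 15.4% ± 2.98 in DKO and 49.1% ± 14.8 in SKO (SD, n = 3), and Ebf3 was the larger of the pair in every DKO library. In SKO, Ebf2 was the larger in replicates 1 and 2 and Ebf3 in replicate 3.

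The summed Runx level was 10.9 ± 3.27 CPM per kb in DKO and 1.70 ± 0.355 in SKO (SD, n = 3). Runx2 accounted for 80.3%, 85.4% and 67.1% of it in DKO and for 98.0%, 95.9% and 98.2% in SKO. The Runx2 shares did not overlap and were lower in DKO, although the level of Runx2 itself was higher there (8.23 against 1.66 CPM per kb). Runx3 held 13.6%, 8.94% and 28.7% in DKO replicates 1, 2 and 3, and under 1% in each control. The ratio of Cbfb to the sum of Runx1 to Runx3 was 1.72, 0.704 and 0.412 in DKO and 3.54, 2.15 and 1.89 in SKO. In each control library Cbfb exceeded its summed partners per length, and in DKO replicates 2 and 3 it did not.

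**Figure D3:**
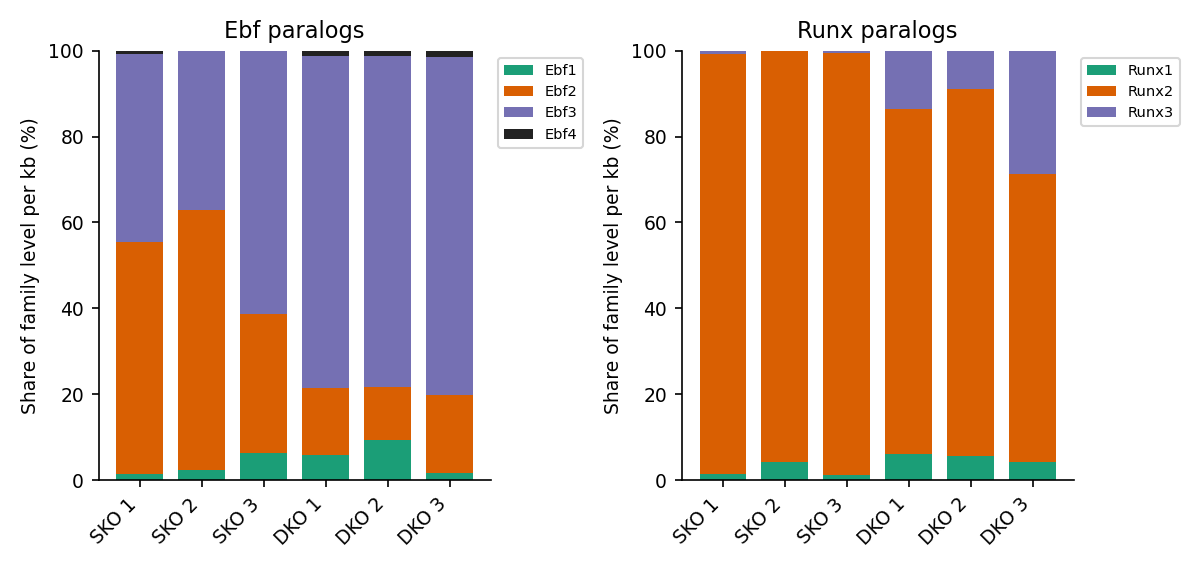
Share of the summed Ebf level (left) and summed Runx level (right), in percent of CPM per kb, held by each gene in each of the 6 libraries. Stacked bars are single libraries. Ebf3 holds 77.1% to 78.8% in DKO and 37.1% to 61.4% in SKO, and Runx3 is a thin strip or absent in SKO and 8.94% to 28.7% in DKO.

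The start sites of these genes differ in CpG content, a feature linked to Polycomb binding in other cells. Windows of 250 bases before a start were taken from RefSeq (GRCm38.p6) for 7 of the 8 genes, 10 windows in all, and Ebf2 was not matched. In this set Runx1 and Runx3 had 2 windows each and Runx2 had 1, and any other start of Runx2 was not examined. Ebf3, the gene with the highest DKO level, is shown for comparison. The stretches below lie outside annotated GENCODE exons, are written 5′ to 3′ on the gene's strand, and carry each CG dinucleotide in capitals. They are shown because, in both Runx1 and Runx3, the upstream stretch holds fewer CpG than the other.
Runx1 upstream start (chr16:92826150-92826324, minus strand, 0 CpG in 175 bases): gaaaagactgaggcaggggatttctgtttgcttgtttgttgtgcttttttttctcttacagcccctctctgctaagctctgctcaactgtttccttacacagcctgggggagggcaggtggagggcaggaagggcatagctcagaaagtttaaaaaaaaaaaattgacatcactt
Runx1 second start (chr16:92697330-92697579, minus strand, 27 CpG in 250 bases): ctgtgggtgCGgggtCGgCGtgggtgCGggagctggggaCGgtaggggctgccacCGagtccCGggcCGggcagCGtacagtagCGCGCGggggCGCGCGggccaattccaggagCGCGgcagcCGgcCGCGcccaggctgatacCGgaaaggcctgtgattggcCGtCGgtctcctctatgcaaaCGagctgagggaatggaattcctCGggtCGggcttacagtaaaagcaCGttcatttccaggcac
Runx3 upstream start (chr4:135120448-135120644, plus strand, 5 CpG in 197 bases): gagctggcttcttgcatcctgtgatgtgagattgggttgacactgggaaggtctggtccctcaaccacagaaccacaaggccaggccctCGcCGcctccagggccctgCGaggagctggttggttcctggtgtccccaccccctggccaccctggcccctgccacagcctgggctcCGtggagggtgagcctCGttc
Runx3 second start (chr4:135152295-135152495, plus strand, 28 CpG in 201 bases): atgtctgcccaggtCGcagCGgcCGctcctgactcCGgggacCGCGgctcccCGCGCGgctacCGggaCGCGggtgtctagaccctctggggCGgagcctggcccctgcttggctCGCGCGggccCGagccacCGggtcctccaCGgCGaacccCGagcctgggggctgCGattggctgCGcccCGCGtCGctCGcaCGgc
Ebf3 start (chr7:137314446-137314695, minus strand, 43 CpG in 250 bases): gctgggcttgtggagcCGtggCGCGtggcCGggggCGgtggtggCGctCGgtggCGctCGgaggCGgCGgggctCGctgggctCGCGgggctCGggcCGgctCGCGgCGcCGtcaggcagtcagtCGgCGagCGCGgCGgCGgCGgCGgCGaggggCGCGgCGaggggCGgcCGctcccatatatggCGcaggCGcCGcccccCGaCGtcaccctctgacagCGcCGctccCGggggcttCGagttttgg

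In the full windows of 250 bases, Ebf3 held more CpG than 99.3% of 32851 RefSeq promoters of mouse genes, and the second Runx3 start (38 CpG) more than 98.1%. The Ebf3 window lies inside the annotated gene, whose 5′ end on the minus strand is at chr7:137322805. The sequence before that end was not examined. The Ebf4 window held 31 CpG, Cbfb 25, and the Ebf1 starts 9 and 14. The upstream Runx3 window, with 8 CpG, held more than 57.0% of all promoters. The only Runx2 window in the set, at 0 CpG, was at the other end, next to the upstream Runx1 window with 2, which held more than 18.8%. Over all promoters, 30.8% had a GC content over 50% together with an observed to expected CpG ratio above 0.6. The table counts reads per gene, so it does not say which start was used in the oocytes. The Runx motifs TGTGGT or TGCGGT, searched on both strands, occurred in 3 of the 10 windows (the first Ebf1 start, Runx2 and the upstream Runx3 start) and in 18.6% of all promoters. Annotated GENCODE exons covered all 250 bases of that Ebf1 window, 170 of the Runx2 window and 53 of the upstream Runx3 window. They also covered 75 bases of the upstream Runx1 window and 49 of the second Runx3 window. The CpG and motif counts of all these windows therefore include exon sequence. Outside exons, the upstream Runx1, upstream Runx3 and second Runx3 windows held 0, 5 and 28 CpG. The core of the Ebf motif, CCCNNGGG, occurred in the Ebf3 window and in 11.8% of all promoters. The same core with a T before and an A after it was in 0 of the 10 windows and 0.779% of all promoters.

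Each Runx gene sits beside a Clic gene, for a chloride channel-like protein, and an Rcan gene, for a calcineurin inhibitor, an arrangement left by ancient genome duplications. Beside Runx1 both paralogs were higher in DKO, beside Runx2 only Clic5 passed, and beside Runx3 neither did; the difference between the 3 places was not tested. Of the 6 Clic and Rcan genes, 3 were called higher and 0 lower, beside 17.3% and 7.41% of all tested genes. Their median log2 fold change was 1.57 beside 0.04 for all tested genes. On the SKO libraries alone 3 of the 6 passed the filter and 1 was higher, beside 12.0% of all genes that passed so. Clic5, Clic6 and Rcan2 did not pass on those libraries alone. Clic6, 60.2 kb from Runx1, had 786, 783 and 763 counts in DKO and 1, 1 and 3 in SKO, and was nearly absent from every control (log2 fold change 8.93, SE 0.43, adjusted p = 1.35e-06, edgeR; 9.56 without SKO replicate 3). Rcan1, 135 kb from Runx1, was at 52.4 ± 2.33 and 21.0 ± 0.637 CPM (SD, n = 3; log2 fold change 1.32, adjusted p = 0.000671, edgeR).

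Clic5, 216 kb from Runx2, had 177, 163 and 112 counts in DKO and 3, 1 and 0 in SKO (log2 fold change 6.90, adjusted p = 0.000129, edgeR; 8.04 without SKO replicate 1). Rcan2, 456 kb from Runx2, had 49, 30 and 19 counts in DKO and 0, 0 and 33 in SKO, and did not pass (log2 fold change 1.83, adjusted p = 0.322, edgeR). Without SKO replicate 3, its only control library with counts, it was called (adjusted p = 0.00856, edgeR). Beside Runx3, Clic4 at 36.0 kb was abundant and alike in both groups, at 357.6 ± 101.6 and 335.6 ± 21.1 CPM (SD, n = 3; log2 fold change 0.09, adjusted p = 0.792, edgeR). Rcan3, 234 kb from Runx3, had a log2 fold change of -0.46 (adjusted p = 0.0801, edgeR) and was called lower only without DKO replicate 2 (-0.61, adjusted p = 0.0357, edgeR).

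The nearest tested gene on each side of the 8 genes gives 16 neighbours. Of these, 4 were called higher and 0 lower, beside 17.3% and 7.41% of all tested genes. The 4 were Clic6, Clic5, Cdc5l (577 kb from Runx2, log2 fold change 2.70, adjusted p = 0.000459, edgeR) and Pced1a (47.2 kb from Ebf4, 1.99, adjusted p = 0.0057, edgeR). The 12 others did not pass. Beside Ebf1 these were Rnf145 (log2 fold change 0.52) and Clint1 (-0.36), beside Ebf2 Ppp2r2a (0.43) and Cdca2 (-0.12), and beside Ebf3 Mgmt (1.02) and 9430038I01Rik (0.04). The others were Idh3b beside Ebf4 (-0.21), Setd4 beside Runx1 (0.15), Syf2 and Clic4 beside Runx3 (0.05 and 0.09), and Ciao2b and D230025D16Rik beside Cbfb (-0.53 and -0.35).

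Within 500 kb of the 8 genes, a distance chosen after the data were seen, 85 other genes were tested, of which 9 were called higher (10.6%) and 3 lower. The genome-wide share called higher was 17.3%. Reads of overlapping genes cannot be told apart where strand was not stated. Supt3, which overlaps Runx2 on the other strand, was at 34.6 CPM in DKO and 41.4 in SKO (log2 fold change -0.26, adjusted p = 0.405, edgeR). The noncoding genes inside Ebf2 and Ebf3 (Gm6878, 4930438E09Rik and Gm10578) had at most 13 counts in any library.

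**Figure D4:**
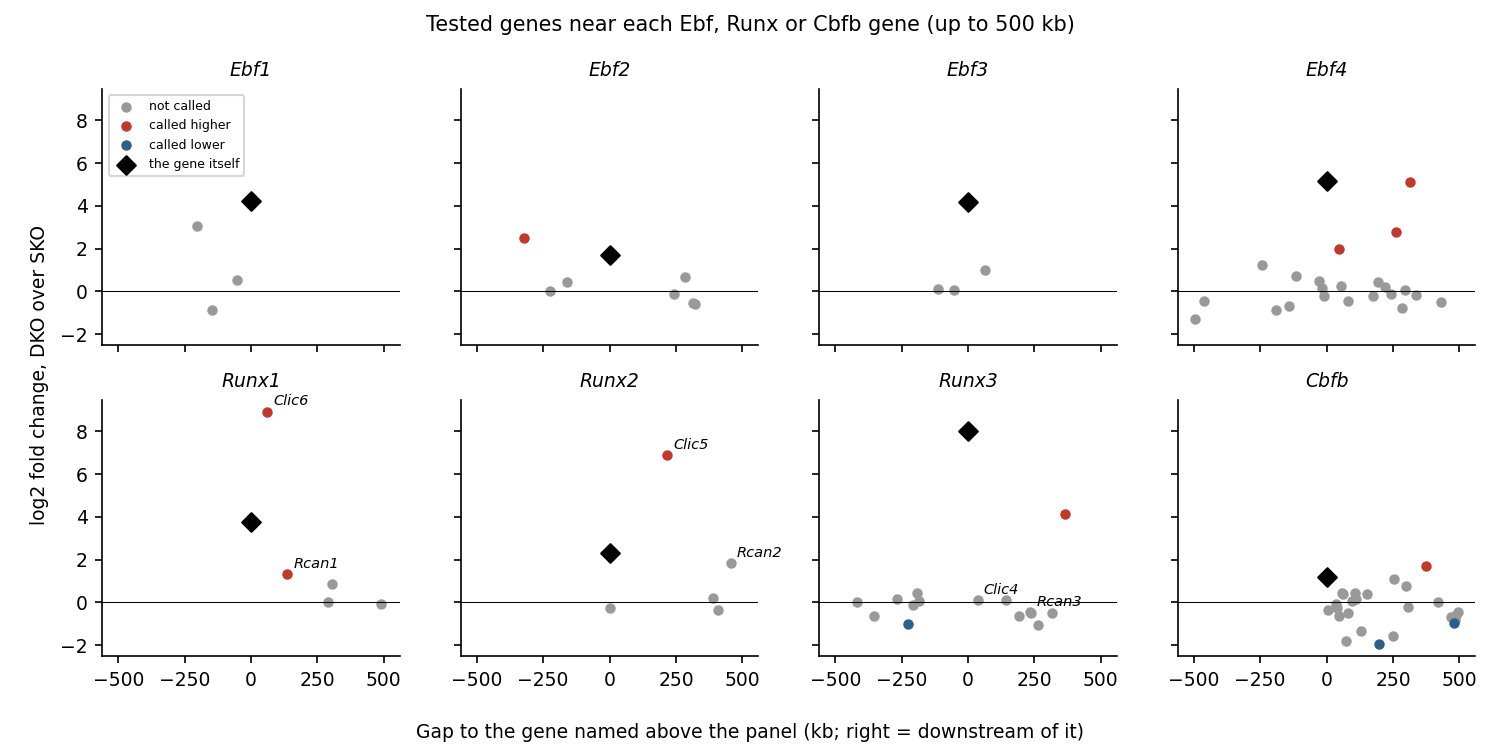
Log2 fold change of DKO over SKO (y axis) of tested genes up to 500 kb from each Ebf, Runx or Cbfb gene, against the gap to it in kb (x axis, right is downstream). Each point is 1 gene, coloured by call, and the named gene itself is drawn at 0. Of 85 neighbours 9 are called higher, with Clic6 beside Runx1 and Clic5 beside Runx2 at the top of their panels.

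Of 22 tested Runx cofactors, which bind Runx proteins or modify chromatin with them, 2 were called higher and 0 lower, beside 17.3% and 7.41% of all tested genes. The median log2 fold change was -0.02. The filter was passed on the SKO libraries alone by 21, of which 1 was higher, beside 12.0% of all genes that passed so. Tle3, 1 of the 2 called, entered the test through its DKO counts only. Kmt2a, a histone H3K4 methyltransferase that binds Runx1, was at 382 ± 68.8 CPM in DKO and 14.9 ± 5.72 in SKO (SD, n = 3; log2 fold change 4.68, SE 0.31, adjusted p = 6.03e-06, edgeR). Tle3, a corepressor of the Groucho family, was at 48.6 ± 1.72 and 0.261 ± 0.263 CPM (SD, n = 3; log2 fold change 7.48, adjusted p = 6.23e-06, edgeR), and the fold change was 8.71 without SKO replicate 1. The other 20 tested cofactors, including the corepressors Runx1t1 (0.36) and Cbfa2t2 (0.27), did not pass.

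Of 14 Ebf cofactors, all tested, 3 were called higher (21.4%) and 2 lower, beside 17.3% and 7.41% of all tested genes. Their median was 0.23. The filter was passed on the SKO libraries alone by 13, of which 3 were higher, beside 12.0% of all genes that passed so. Zfp521, a zinc finger antagonist of Ebf1, was higher (log2 fold change 1.74, adjusted p = 0.0017, edgeR), as were the lymphoid factor Ikzf1 (2.93, adjusted p = 0.00128, edgeR) and Id3, an inhibitor of E proteins (2.34, adjusted p = 0.00534, edgeR). Without SKO replicate 2 the value for Ikzf1 was 3.62, and without DKO replicate 1 that for Id3 was 1.69. Cnot1, the scaffold of the CCR4-NOT deadenylase, was lower (-0.63, adjusted p = 0.0105, edgeR), a call lost without SKO replicate 3 (adjusted p = 0.0588, edgeR). Tcf3, an E protein that works with Ebf1 in B cells, was lower too (-0.87, adjusted p = 0.0117, edgeR).

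Genes that the Runx factors act beside in other tissues included several that were nearly silent in SKO. Among 22 blood and endothelial regulators around Runx1, 15 were tested, with a median log2 fold change of 2.46. Of the 15, 9 were called higher and 0 lower, beside 17.3% and 7.41% of all tested genes. On the SKO libraries alone 7 of these passed the filter, of which 2 were higher, beside 12.0% of all genes that passed so. Myb, a factor of blood progenitors, had 680, 374 and 315 counts in DKO and 1, 0 and 4 in SKO (log2 fold change 8.23, adjusted p = 4.6e-05, edgeR). The value for Myb was 7.62 without DKO replicate 1 and 9.71 without SKO replicate 3. Etv6, an Ets repressor already present in SKO, went from 6.77 ± 1.51 to 37.3 ± 4.21 CPM (SD, n = 3; log2 fold change 2.46, adjusted p = 9.66e-05, edgeR). Gata2, a partner of Runx1 in blood stem cells, was also higher (5.13, adjusted p = 0.000128, edgeR). Fli1, an Ets factor of endothelium, had 222 DKO counts and 1 SKO count, a ratio of 244 (exact 95% interval 43.3 to 9670), and that count came from SKO replicate 1 alone.

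Of 20 bone and cartilage genes around Runx2, 9 were tested, and the median was 3.19. Of the 9, 5 were called higher and 0 lower, beside 17.3% and 7.41% of all tested genes. On the SKO libraries alone 5 passed the filter and 1 was higher, beside 12.0% of all genes that passed so. Pthlh, a hormone-like signal of growth plate cartilage, had the highest control level of the named genes, 3.13 ± 1.79 CPM against 28.6 ± 4.43 in DKO (SD, n = 3; log2 fold change 3.19, adjusted p = 0.000304, edgeR). The homeobox gene Msx2 (5.89, adjusted p = 0.000275, edgeR) and Dlx5 (4.58, adjusted p = 0.00379, edgeR), both regulators of bone formation, were higher. Without SKO replicate 1 the value for Msx2 was 7.86, and that for Dlx5 was 3.68 without DKO replicate 3 and 5.25 without SKO replicate 3. Sox9, the cartilage master factor, had 167, 82 and 59 counts in DKO and 1, 1 and 0 in SKO, a ratio of 169 (exact 95% interval 46.4 to 1400). Its fitted log2 fold change was 7.27, and 6.51 without DKO replicate 1.

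Of 15 T cell and sensory neuron genes around Runx3, 10 were tested, and the median was 2.31. Of the 10, 5 were higher and 0 lower, beside 17.3% and 7.41% of all tested genes. On the SKO libraries alone 5 passed and 2 were higher, beside 12.0% of all genes that passed so. Eomes, a T-box factor of cytotoxic lymphocytes, was at 30.1 ± 7.49 and 0.257 ± 0.118 CPM (SD, n = 3; log2 fold change 6.85, adjusted p = 3.98e-06, edgeR). The neurotrophin receptor gene Ntrk2 (2.72, adjusted p = 0.00112, edgeR) and the LIM factor Isl1 (1.91, adjusted p = 0.00143, edgeR) were higher from countable control levels. Gzmb, a cytotoxic protease, had 79 counts in DKO and 0 in SKO, at least 28.9-fold higher against a floor of 3 counts over the group.

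The lists around the Ebf genes were thinly counted. Their calls stand beside 17.3% higher and 7.41% lower among all tested genes. Of 13 B cell genes around Ebf1, 3 were tested and 1 was higher, 0 lower, with a median of 0.79. That gene, Il7r, the interleukin 7 receptor, had 50 DKO counts and 1 SKO count, a ratio of 54.9 (exact 95% interval 9.41 to 2210), the control count being in SKO replicate 1. Cd72 did not pass (log2 fold change 0.79, adjusted p = 0.165, edgeR). Of 15 fat and neuron genes, 8 were tested, 3 were higher and 0 lower, and the median was 1.19. Ppargc1a, a coactivator of brown fat and mitochondrial genes, was higher by 4.95 on the log2 scale (adjusted p = 6.28e-05, edgeR). Neurog1, a neurogenic factor, had 84 counts in DKO and 0 in SKO, at least 30.7-fold higher against the same floor, with 43 of the 84 counts in DKO replicate 1. On the SKO libraries alone 2 B cell genes and 4 fat and neuron genes passed the filter. Of them 0 were higher, beside 12.0% of all genes that passed so. The medians were the same with Gzmb and Neurog1 set at their bounds. Counts of these lists were not compared with other genes by a test.

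**Figure D5:**
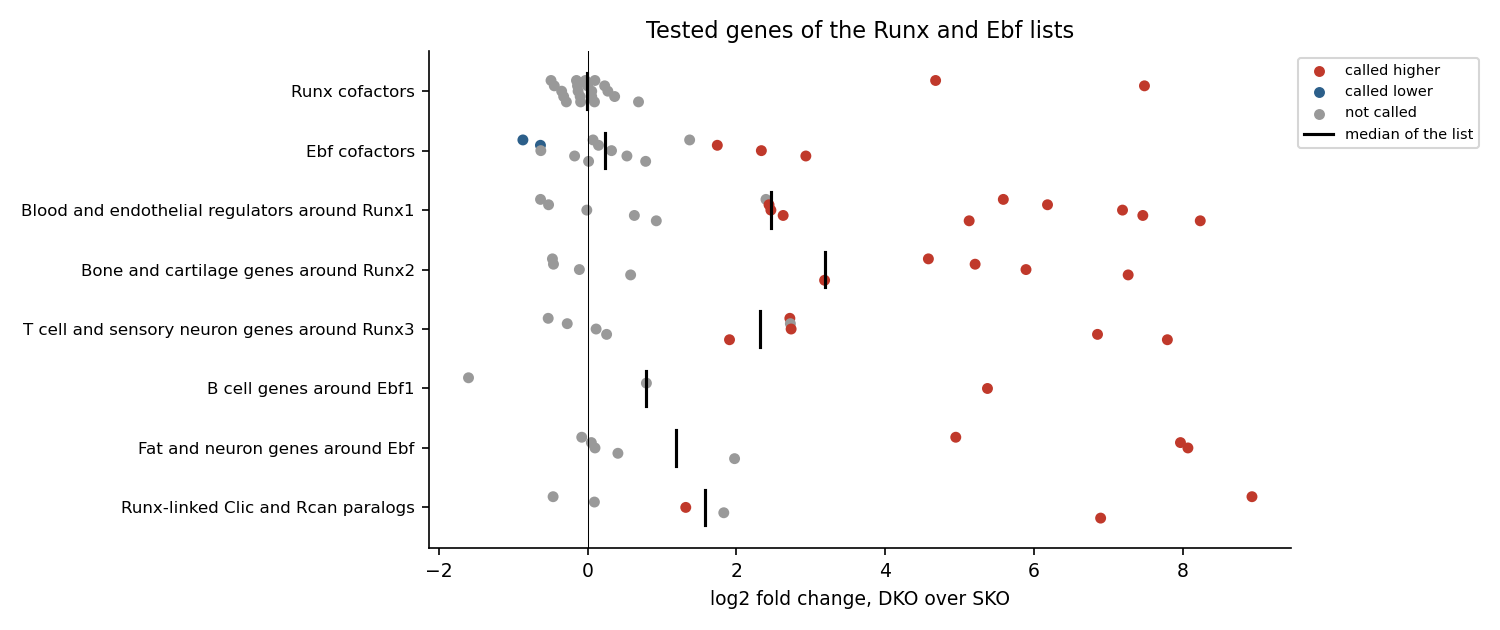
Log2 fold change of DKO over SKO (x axis) for the tested genes of 8 lists of Runx and Ebf cofactors, related genes and linked paralogs (y axis). Each point is 1 gene, coloured by call, and the black tick is the list's median. The 2 cofactor lists centre near 0 (-0.02 and 0.23), and every gene beyond 6 is under 0.5 CPM in SKO.

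Genes whose pattern over the 6 libraries was most like each of the 8 were listed by the root mean square difference of centred log2 values (CPM plus 0.5), a measure that compresses low genes and carries no p-value. For Ebf3 these were Hoxd8, Adad1 and Cacna2d2 (0.15 to 0.18 log2 units). The profile of Ebf1, with its low value in DKO replicate 3, had no near match, with Tagln2, Fbln5 and Hoxa10 at 0.36 to 0.39. Ebf2 was closest to Ppp1r16b (0.14), Fgf11 (0.16) and Gucy1a1 (0.22), and Ebf4 to Cltrn, Ccne1 and Heg1 (0.09 to 0.11). Being near by this measure does not mean a like fold change. Cltrn, Ccne1 and Heg1 had log2 fold changes of 1.8, 1.9 and 1.9, whereas the count ratio of Ebf4 was 43.3.

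Among the Runx genes, Runx2 was closest to Slc29a4, Zscan26 and Popdc3 (0.10 to 0.12), and Runx1 to Plekhd1, Slc1a4 and Ltbp4 (0.12 to 0.17). Runx3, with its high value in DKO replicate 3, was matched less closely, by Lypd4 (0.32), Fgf18 (0.39) and Cpne2 (0.41). Cbfb was closest to Ap1s2, Jph1 and Gpr174 (0.07 to 0.12). The 8 genes had 24 different nearest genes, so none was named for more than 1 of them.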

How the data were processed

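Per the labels' protocols, RNA of 15 GV oocytes per mouse was amplified (Ovation) before library construction. The authors deposited raw read counts per Entrez gene for 6 libraries, with gene lengths. The submitters' processing notes name STAR 2.5.0a and GRCm38; how reads were assigned to genes, by which annotation and with what use of strand or multi-mapping reads, is not stated in the sources used. Symbols and coordinates came from RefSeq (GRCm38.p6), matching 24387 of 24421 identifiers, and 0 sample columns were unused.

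In R 4.3.3, edgeR 4.0.16 (filterByExpr with minimum count 10 and minimum total 15, TMM, two-sided quasi-likelihood test, Benjamini-Hochberg) tested 14845 genes, and an adjusted p under 0.05 was called. SE was taken from the F statistic, and the code was tested on simulated data. Fold changes are DKO over SKO. Replicates are separate mice.

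The genes, lists and tests were chosen with earlier results of these data known. Named are the 8 genes, Rnf2, Ring1, the Clic and Rcan paralogs, up to 4 called members of each other list by adjusted p (the most abundant tested gene where fewer than 2 passed), the 3 most abundant of each marker list, the nearest tested genes and the 3 most alike. Tcf3, Runx1t1, Cbfa2t2, Supt3 and marker genes beyond these were added after their values were seen. Some genes the rule would name are not reported here. Alternatives were library totals, DESeq2 1.42.0, no filter, at least 1 CPM in 3 libraries, a replicate block and leaving out each library.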

Additional observations from a re-analysis of the deposited data

How the results depend on the processing

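All 8 Ebf, Runx and Cbfb genes were called higher with library totals, DESeq2 and no filter. The same held with a filter of at least 1 CPM in 3 libraries and with the replicate block. Leaving out 1 library gave 7 to 8, Cbfb being the gene lost, and 0 were called lower under any of these settings. Beside this, 2905 of 14845 tested genes were called higher with library totals, 2883 of 14845 with DESeq2 and 2788 of 20319 with no filter. With the 1 CPM filter it was 2346 of 13418, and with the block 2651 of 14845. The 8 were chosen with this contrast known, so nothing is read from how many were called. Leaving out 1 library gave 1952 to 2704 genes called higher and 434 to 1501 called lower, with 15161 to 15552 tested. The lower calls numbered 516, 464 and 434 without SKO replicate 1, 2 and 3. With library totals, the genes called lower numbered 596 and those called higher 2905, so higher calls made up 83% against 70% with TMM, and the median log2 fold change of all genes moved from 0.04 to 0.20. Without SKO replicate 1, 2 or 3, higher calls made up 80.1% to 81.8%. With the replicate number as a block, 2651 genes were higher, and no call among the 8 changed. Same-numbered DKO and SKO libraries correlated at 0.167, 0.084 and 0.056 in their deviations from the group means, each the best match of its library, which is a hint from the data and not from the design. Among 405 values of the 8 genes and 29 list genes under these alternatives, no called gene changed sign; Clic4, which was not called, lay between -0.05 and 0.30. The fitted log2 fold change of Ebf4 ranged from 4.65 to 7.74, the latter without SKO replicate 1, which holds its only control counts. The depth limits Ebf4 and Runx3, with 2 SKO counts each. The cause of these shifts was not tested.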
